A study of Homo sapiens with 5 samples.

Results

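UPF1, UPF2, UPF3A, UPF3B, SMG1, SMG5, SMG6, SMG8 and SMG9 encode the core factors of nonsense-mediated mRNA decay, and their mRNA levels are described here in SH-SY5Y cells. The 9 genes were found by symbol among 26364 in the deposited files and had a value in all 5 libraries. SH-SY5Y is a human neuroblastoma cell line used as a model of neuronal differentiation. The libraries were siControl (a control siRNA), siSTAU1 and siUPF1 (siRNAs against those mRNAs), Nondifferentiation and Differentiation, each a group of 1 library. All were grown with 10% serum and 1% antibiotics. The labels list 50 uM retinoic acid for both Nondifferentiation and Differentiation and none for the siRNA libraries. The deposited values of Nondifferentiation are headed proliferation, and whether those cells received retinoic acid is unclear. The labels give no siRNA sequence, dose or time. Libraries were made from 500 ng of total RNA with a kit that reads the 3' ends of polyadenylated RNA, so levels do not scale with transcript length.

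Nonsense-mediated decay removes mRNAs on which translation stops at an unusual place, for instance upstream of an exon junction. UPF1 is its RNA helicase. UPF2 is an adaptor that joins UPF1 to UPF3A or UPF3B, a pair of paralogs of which UPF3B is the main link to the exon junction complex. SMG1 is the kinase that phosphorylates UPF1, and SMG8 and SMG9 bind SMG1 and restrain it. Phosphorylated UPF1 recruits SMG6, an endonuclease that cuts near the stop codon, and SMG5, which acts in bringing in decapping and deadenylation. In other human cells several of these factors' own mRNAs have been reported as targets of the pathway. STAU1 brings UPF1 to other mRNAs in Staufen-mediated decay.

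The deposited log2 values share a common distribution over the 5 libraries, and the steps between the lowest values gave estimated depths from 15300000 reads in siControl to 33600000 in Differentiation. With 1 library per group there is no replicate check, no test was run, and no p-value is given. The 95% intervals printed with log2 folds cover counting error at these depths; how far cultures differ is not known. Genes are counted at a difference of 2-fold in either direction, where the larger of its 2 values reached the median nonzero value of the pair (a log2 value of 7.76 to 7.84). The 8 noradrenergic neuroblastoma markers were present in every library, with medians of 11.84 to 12.61. The 7 epithelial markers summed to linear levels of 64.4 in siControl, 603 in siSTAU1 and 152 in siUPF1, and to 59.8 in Nondifferentiation and 136 in Differentiation. CDH1 and ESR1 were listed at 0 in siControl and stood at 5.21 and 5.71 in siSTAU1. In siUPF1 CDH1 was listed at 0 and ESR1 stood at 4.74. KRT18 stood at 4.74 there, at 2.49 in siControl and at 7.56 in siSTAU1. EPCAM went the other way, since its siControl value of 2.49 exceeded the 2.26 of siSTAU1 and the 0.26 of siUPF1. The highest epithelial value in any library, 7.56 for KRT18, lay below the median of 7.76 to 7.84 that counting required. The part of these markers in the siSTAU1 and siUPF1 values below was not tested, and in bulk RNA more cells of a type and more RNA per cell cannot be told apart. Of the blood markers PTPRC was listed at 0 in all 5 libraries, as was the glial marker SOX10. STAU1, the other targeted mRNA, was 2.88-fold lower in siSTAU1 than in siControl.

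The 9 mRNAs were of middle to high abundance. In siControl they ran from SMG9 at 7.97, above 51.5% of genes with a nonzero value, to UPF3B at 10.88, above 87.0%. The order there was UPF3B, UPF1, SMG6, UPF3A, UPF2, SMG8, SMG5, SMG1 and SMG9, and of these neighbours SMG5 and SMG1 were within counting error of each other, at 8.48 and 8.47. SMG6 led in siUPF1, Nondifferentiation and Differentiation, within counting error of UPF3B in siUPF1 and of UPF1 in Nondifferentiation. SMG9 was last in all 5. The values ranged over the libraries by 0.35 for SMG8, the steadiest, and by 0.46 for SMG1, 0.58 for UPF3A, 0.66 for UPF2 and 0.77 for UPF3B. Ranges of 1 or more were seen for SMG9 (1.06), SMG5 (1.10), SMG6 (1.24) and UPF1 (1.53), which is 4 of 9 members where 27.6% of 8306 genes had such a range. Those 8306 genes had a mean log2 value of at least 7.81, which 8 of the 9 members reached and SMG9, at 7.80, did not, so SMG9 is counted among the members here and below without being one of the 8306. Without Differentiation only UPF1 ranged that far, where 2.16% of genes did.

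**Figure D1:**
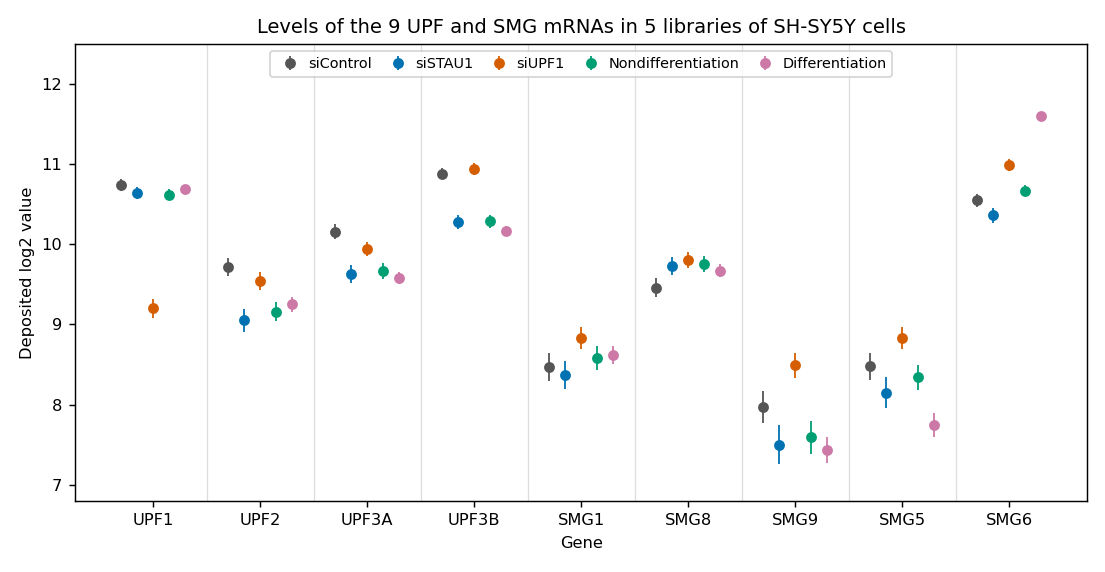
Deposited log2 value (vertical axis) of the 9 genes (horizontal axis) in the 5 libraries; each point is 1 library and bars are 95% counting intervals. UPF1 is low in siUPF1 alone, SMG6 is highest in Differentiation, and UPF2, UPF3A and UPF3B are each higher in siControl and siUPF1 than in the other 3 libraries.

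The UPF1 value was 10.74 in siControl, 10.64 in siSTAU1, and 9.20 in the library of its own siRNA, and it was 10.62 in Nondifferentiation and 10.69 in Differentiation. The siUPF1 library was low, and siSTAU1, Nondifferentiation and Differentiation lay within 0.12 of siControl. Against siControl the siUPF1 value was 2.90-fold lower, a log2 fold of -1.53 with a counting interval from -1.68 to -1.39. This was the lowest log2 fold of the 8475 genes measured in that pair. It was -1.44 against siSTAU1 and -1.41 against Nondifferentiation, so the size hardly depended on the reference. In those pairs UPF1 was again the only member counted, where 0.837% and 1.37% of measured genes were. An estimated 541 of 17900000 reads remained in siUPF1, beside 1339 of 15300000 in siControl. UPF1 was the only member counted at 2-fold in this pair, 1 of 9, where 0.543% of measured genes were counted in either direction. It was also the only one past 1.5-fold, where 4.55% of measured genes were. Within libraries UPF1 exceeded UPF2 by a log2 difference of 1.02 in siControl and 1.46 in Nondifferentiation, and lay below it by a difference of -0.34 in siUPF1. The design text speaks of lower UPF1 with differentiation, and does not specify mRNA or protein. The log2 fold of the UPF1 mRNA between Differentiation and Nondifferentiation was 0.07, with an interval from -0.02 to 0.17. It was -0.29, given without an interval, once linear trends with GC content and transcript length had been subtracted. Those trends were weak in this pair, at a Pearson r across genes of 0.11 for GC content and 0.14 for log2 length.

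The adaptor mRNAs UPF2, UPF3A and UPF3B shared a pattern over the libraries. UPF2 had a value of 9.72 in siControl, 9.05 in siSTAU1 and 9.54 in siUPF1, and of 9.16 in Nondifferentiation and 9.25 in Differentiation. UPF3A stood at 10.16, 9.63, 9.94, 9.67 and 9.58 in the same order of libraries. UPF3B stood at 10.88, 10.28, 10.94, 10.29 and 10.17. In all 3 genes siControl and siUPF1 were the higher libraries, and siSTAU1, Nondifferentiation and Differentiation were the lower ones. SMG5 and SMG9 had the same split, which makes 5 of 9 members, where 7.81% of 8306 genes had it. For SMG5 the split was partly within counting error, with siControl above Nondifferentiation by 0.15 (-0.09 to 0.38). This pattern was described after the values were seen.

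By the distance between log2 values centred on each gene's mean, UPF2 and UPF3A were near each other, and UPF3B lay farther off. UPF3A was the 5th nearest of 8305 genes to UPF2, at a distance of 0.188, and UPF3B was the 87th, at 0.342. Seen from UPF3A, UPF2 was the 20th and UPF3B the 223rd, at 0.332. Seen from UPF3B, UPF3A was the 22nd nearest, UPF2 the 24th and SMG5 the 73rd, at 0.409. SMG9 was as close to UPF3B as UPF2 was, at 0.339, so nearness was not limited to the adaptors. SMG8, which had its lowest value in siControl, was 3455th from UPF2. The 5 libraries all enter these distances, so they describe these libraries and no more.

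The sequences before the starts of these 3 genes are shown because their mRNAs had the same split over the libraries. They are the 250 bases upstream of each RefSeq gene start, from RefSeq on GRCh38.p14, a different build from the hg19 named for the files. Of the 9 members all but SMG8 matched an entry. UPF2 is at chr10:12043171-12043420 on the minus strand, UPF3A at chr13:114281351-114281600 on the plus strand and UPF3B at chrX:119852964-119853213 on the minus strand. Capitals mark GGGCGG (the GC box) and CCAAT (the CCAAT box) on either strand.
UPF2: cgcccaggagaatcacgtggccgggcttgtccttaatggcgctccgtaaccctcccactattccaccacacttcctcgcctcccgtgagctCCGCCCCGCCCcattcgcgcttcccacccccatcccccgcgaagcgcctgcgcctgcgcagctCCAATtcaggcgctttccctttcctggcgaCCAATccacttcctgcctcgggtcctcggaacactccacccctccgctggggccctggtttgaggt
UPF3A: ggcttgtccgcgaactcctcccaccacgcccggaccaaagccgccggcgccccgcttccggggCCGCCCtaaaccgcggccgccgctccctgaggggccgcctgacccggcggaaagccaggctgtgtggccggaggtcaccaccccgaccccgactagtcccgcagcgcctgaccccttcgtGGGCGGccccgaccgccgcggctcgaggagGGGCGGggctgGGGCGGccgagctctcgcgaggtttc
UPF3B: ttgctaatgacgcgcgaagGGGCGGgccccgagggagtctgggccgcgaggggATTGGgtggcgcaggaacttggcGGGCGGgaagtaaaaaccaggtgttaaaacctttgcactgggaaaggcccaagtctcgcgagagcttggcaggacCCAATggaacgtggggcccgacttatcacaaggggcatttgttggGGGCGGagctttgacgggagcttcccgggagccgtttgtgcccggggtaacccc

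All 3 windows held GGGCGG, with 2 overlapping matches for UPF2, 4 matches for UPF3A and 3 for UPF3B. Of 24885 RefSeq windows of the same length 41.7% held at least 1. CCAAT occurred 2 times in UPF2, 2 times in UPF3B and 0 times in UPF3A, and 33.4% of all windows held it. AGGTCA, a motif bound by retinoic acid receptors, occurred once, in UPF3A, and in 12.3% of all windows. Of the other members with the split, SMG5, for which it was partly within counting error, had 2 GC box matches and 1 CCAAT match. SMG9 had 0 of each. SMG1 and SMG6, without the split, had 6 GC box and 0 CCAAT matches each, and UPF1 had 2 and 1. The windows were GC rich, at 66.0% for UPF2, 76.8% for UPF3A and 62.8% for UPF3B, where the median window had 57.6%. These matches describe letters only.

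In siSTAU1 against siControl 8 of the 9 members were on the lower side and 0 reached 2-fold, where 0.201% of 8454 measured genes were counted and 48.9% were on the lower side. UPF2 and UPF3B passed 1.5-fold, as 2.31% of measured genes did in either direction. The median log2 fold of the 9 was -0.33, beside 0.01 over all measured genes. UPF2 was lowest, 1.58-fold lower, at a log2 fold of -0.66 (counting interval -0.84 to -0.49), the 64th lowest of the 8454. UPF3B had -0.60 (-0.71 to -0.48) and UPF3A -0.53 (-0.68 to -0.39). SMG9 followed at -0.48 and SMG5 at -0.33. SMG6 had -0.19, and UPF1 and SMG1 had -0.10 each, with intervals that reached past 0 for those 2. SMG8 was the exception, at 0.26 (0.10 to 0.43).

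The adaptor differences of siSTAU1 were much smaller against Nondifferentiation. UPF2 then had -0.10, UPF3A -0.04 and UPF3B -0.01, each with an interval that included 0, and the median of the 9 was -0.09. Of the other members SMG6 had -0.30, SMG1 -0.21, SMG5 -0.19, SMG9 -0.09, SMG8 -0.03 and UPF1 0.03, so that UPF1 and SMG8 changed side. SMG9 did not reach the floor in that pair. For the adaptors siControl itself lay above Nondifferentiation, with log2 folds of 0.59 for UPF3B, 0.56 for UPF2 and 0.49 for UPF3A. The same pair gave 0.38 for SMG9, 0.15 for SMG5, 0.12 for UPF1, -0.10 for SMG1, -0.11 for SMG6 and -0.30 for SMG8. In this pair 0 of 9 members reached 2-fold, where 0.796% of measured genes did, and UPF3B alone reached 1.5-fold, where 5.46% did. The labels differ in siRNA and in retinoic acid between those libraries, so these cannot be told apart. The comparisons of siSTAU1 and siUPF1 with siControl share that library and are not independent.

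**Figure D2:**
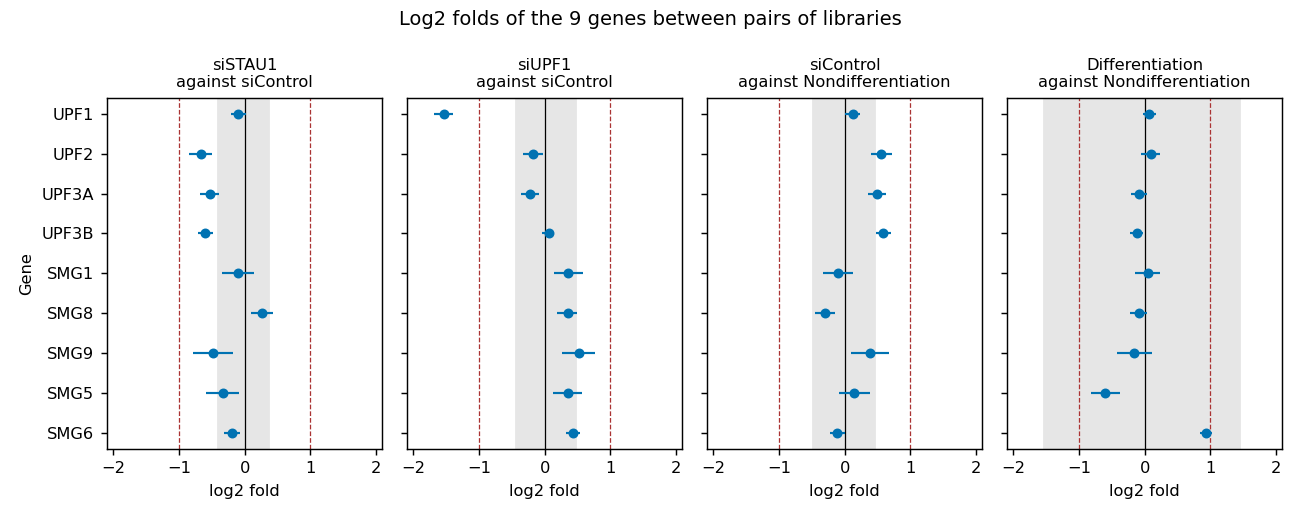
Log2 fold (horizontal axis) of each gene (vertical axis) in 4 pairs of libraries. Points are the differences of 2 deposited log2 values, bars are 95% counting intervals, dashed lines mark 2-fold, and the grey band holds the 5 to 95 percentiles of all measured genes; UPF1 in siUPF1 against siControl, at -1.53, is the only point past a dashed line.

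The paralogs UPF3A and UPF3B did not keep an equal ratio. UPF3B exceeded UPF3A by a log2 difference of 0.72 in siControl, 0.65 in siSTAU1 and 1.00 in siUPF1, and by 0.62 in Nondifferentiation and 0.59 in Differentiation. The siUPF1 difference, a 2.0-fold ratio with an interval from 0.88 to 1.11 on the log2 scale, lay above the intervals of the other 4. UPF3B was at its highest in siUPF1, within counting error of siControl, while UPF3A was highest in siControl.

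All 5 SMG mRNAs were higher in siUPF1 than in siControl, by 1.27-fold to 1.43-fold. SMG9 had a log2 fold of 0.52 (counting interval 0.26 to 0.77), SMG6 0.43 (0.33 to 0.54), SMG1 0.36 (0.14 to 0.58), SMG5 0.35 (0.13 to 0.57) and SMG8 0.35 (0.19 to 0.50). None reached 2-fold, and 47.8% of the 8475 measured genes were on the higher side. UPF3B was level at 0.06, and UPF2 and UPF3A were lower, at -0.18 and -0.23. The median over all 9 members was 0.35, beside -0.01 over all measured genes. SMG6, the highest of the 5 in abundance, ranked 544th from the top and SMG9 345th, so many other genes were as high or higher.

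The SMG values of siUPF1 were also above those of the other 2 reference libraries. In siUPF1 against siSTAU1 all 8 members other than UPF1 were higher, from 0.08 for SMG8 to 0.99 for SMG9, where 46.4% of measured genes were on the higher side. Against Nondifferentiation all 8 were again higher, from 0.05 for SMG8 to 0.90 for SMG9, where 48.0% were. The SMG8 intervals included 0 in both, from -0.06 to 0.23 and from -0.09 to 0.19. SMG9 was the 49th highest of 8486 genes in the first of these pairs and the 71st highest of 8563 in the second. SMG5 had 0.68 and 0.50, and SMG6 0.62 and 0.32. UPF2 and UPF3A turned round, from below siControl to above the other libraries, with UPF2 at 0.49 and 0.38 and UPF3A at 0.31 and 0.27. UPF3B had 0.65 in both. The 3 comparisons share the siUPF1 library and are not independent, and siSTAU1 and Nondifferentiation were added as references for UPF1 knockdown with earlier results known.

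**Figure D3:**
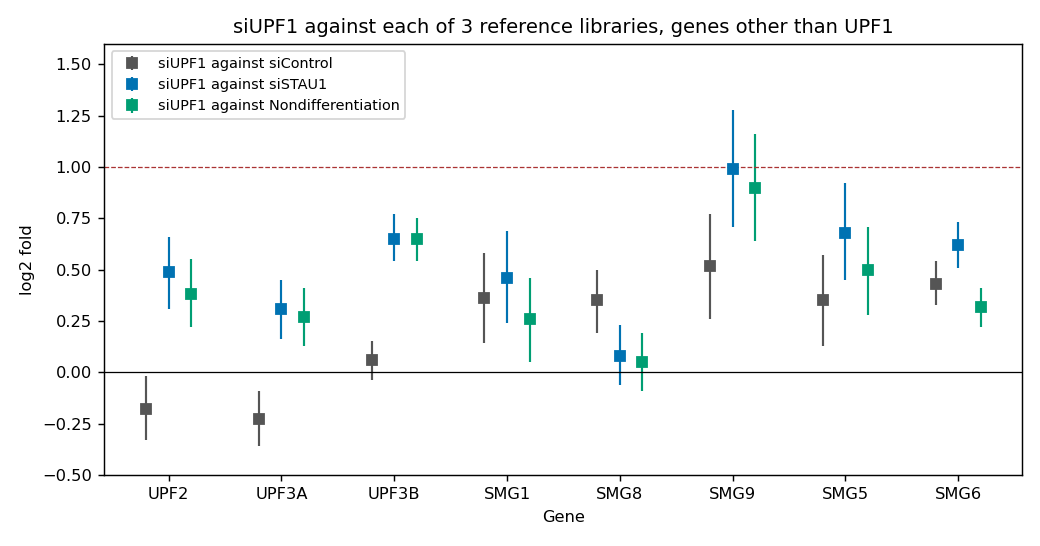
Log2 fold (vertical axis) of siUPF1 against siControl, siSTAU1 and Nondifferentiation for the 8 genes other than UPF1 (horizontal axis), with 95% counting intervals; the dashed line marks 2-fold. The points of the 5 SMG genes are above 0 with each reference, with SMG8 bars that reach below 0 against siSTAU1 and Nondifferentiation, whereas UPF2 and UPF3A are below 0 against siControl and above it against the others.

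Of the 4 libraries outside Differentiation, siUPF1 held the highest value of 6 members, UPF3B and all 5 SMG genes, where it was the highest for 24.5% of 8306 genes. The lead was within counting error for UPF3B over siControl, at 0.06 (-0.04 to 0.15). For SMG8 it was so over siSTAU1, at 0.08 (-0.06 to 0.23), and over Nondifferentiation, at 0.05 (-0.09 to 0.19). Over all 5 libraries siUPF1 was highest for 5 of the 9, since SMG6 was higher in Differentiation, and for 12.7% of genes. siSTAU1 held the lowest of the 4 values for 7 of the 9, all but UPF1 and SMG8, where it was lowest for 21.3% of genes. Of these 7 only SMG6 was below Nondifferentiation beyond counting error, at a log2 fold of -0.30 (-0.42 to -0.19). The others were level with Nondifferentiation within counting error. Log2 folds of siUPF1 against siControl went with the GC content of transcripts, at a Pearson r of 0.27 across genes, which are not independent replicates. GC content was 57.6% for SMG5, 55.3% for SMG6 and for SMG9, 47.8% for SMG8, 43.2% for SMG1 and 40.3% for UPF2, where the median of 8306 genes, taken over those matched, was 47.5%. With the linear GC content and length trends subtracted, the log2 folds were 0.46 for SMG9, 0.42 for SMG1, 0.38 for SMG6, 0.35 for SMG8 and 0.27 for SMG5. UPF2 had -0.10, UPF3A -0.17 and UPF3B 0.11.

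The kinase complex was uneven among its 3 mRNAs. SMG1 had a value of 8.47 in siControl, 8.37 in siSTAU1 and 8.83 in siUPF1, and of 8.58 in Nondifferentiation and 8.62 in Differentiation. SMG8 stood at 9.46, 9.73, 9.81, 9.76 and 9.67, with siControl as its low library. SMG9 stood at 7.97, 7.50, 8.49, 7.59 and 7.43, with siUPF1 as its high one. SMG8 therefore exceeded SMG9 by a log2 difference of 1.49 in siControl and 1.32 in siUPF1, but by 2.23 in siSTAU1, 2.17 in Nondifferentiation and 2.24 in Differentiation. SMG9 rested on an estimated 144 to 330 reads, the fewest of the 9.

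SMG1 is uncertain because partial copies of it lie elsewhere in the genome, and 5 of them, SMG1P1, SMG1P2, SMG1P3, SMG1P5 and SMG1P7, have values of their own. No source used here says how reads shared between them were assigned. The copies together summed to an estimated 316 reads in siControl, 348 in siSTAU1 and 419 in siUPF1, and to 446 in Nondifferentiation and 324 in Differentiation. SMG1 itself had 279, 263, 418, 358 and 679, so reads of the copies were of like number outside Differentiation. In siUPF1 against siControl SMG1P2 had a log2 fold of 0.73 and SMG1P5 0.72, while SMG1P7 had -0.84. In Differentiation against Nondifferentiation SMG1 was level at 0.05, and SMG1P7 had -2.67, SMG1P2 -1.72, SMG1P5 -1.70, SMG1P1 -0.85 and SMG1P3 -0.25. All 5 copies lay below the floor for measured genes.

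The effectors SMG5 and SMG6 parted in Differentiation. SMG6 had a value of 10.55 in siControl, 10.36 in siSTAU1 and 10.99 in siUPF1, and of 10.67 in Nondifferentiation and 11.60 in Differentiation. SMG5 stood at 8.48, 8.15, 8.83, 8.34 and 7.74. Differentiation was the highest library of SMG6 and the lowest of SMG5. Against Nondifferentiation SMG6 was 1.91-fold higher, a log2 fold of 0.93 (counting interval 0.85 to 1.02), and SMG5 was 1.52-fold lower, at -0.60 (-0.82 to -0.38). SMG6 therefore exceeded SMG5 by 4.2-fold to 5.04-fold in the other 4 libraries and by 14.6-fold in Differentiation. On the log2 scale that last difference was 3.87, with an interval from 3.71 to 4.02. With GC content and length trends removed SMG6 had 0.64 and SMG5 -0.86.

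These differences were ordinary in size for this pair, because Differentiation differed widely from Nondifferentiation. In it 21.3% of 9064 measured genes were counted at 2-fold and 43.5% at 1.5-fold, while 0 of 9 members reached 2-fold and 2 of 9, SMG5 and SMG6, reached 1.5-fold. Of measured genes 24.0% were at least as far from 0 as SMG6 and 42.6% as far as SMG5. The other 7 members lay between -0.16 for SMG9 and 0.09 for UPF2, with UPF1 at 0.07, SMG1 at 0.05, UPF3A and SMG8 at -0.09 and UPF3B at -0.12. Of these 7 only UPF3B had an interval that did not include 0. SMG9 did not reach the floor in this pair, so 8 of 9 were measured. The median of the 9 was -0.09, beside 0.02 over all measured genes. With GC content and length trends removed UPF1, UPF3A, UPF3B and SMG1 changed side, to -0.29, 0.16, 0.13 and -0.31.

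Other genes of the decay pathway were mostly on the lower side in Differentiation. Of 26 other pathway genes, 19 were on the lower side and 4 of the 24 measured were counted as lower, with 0 counted as higher, where 10.9% and 10.4% of measured genes were and 49.1% were on the lower side. Their median was -0.33. The exon junction complex, which marks spliced junctions and binds UPF3B, had 6 of 6 on the lower side and a median of -0.64. MAGOHB stood at 7.45 against 9.09 and MAGOH at 10.99 against 12.19, log2 folds of -1.64 and -1.20. RUVBL1 and RUVBL2, ATPases that act in many complexes and bind SMG1, had -1.18 and -1.63.

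Among translation termination and cap or tail binding factors, ETF1, the release factor that reads stop codons, had -0.97, and GSPT2, a paralog of the release factor GSPT1, had 0.60. Among decapping, deadenylation and exonuclease genes XRN1, which degrades RNA from the 5' end, had 0.71 and the decapping enzyme DCP2 had -0.41. The Staufen proteins had -0.01 for STAU1 and 0.43 for STAU2. DHX34, a helicase of the decay pathway, had -1.01 but lay below the floor. Whether the UPF and SMG genes differ from the other lists was not tested.

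**Figure D4:**
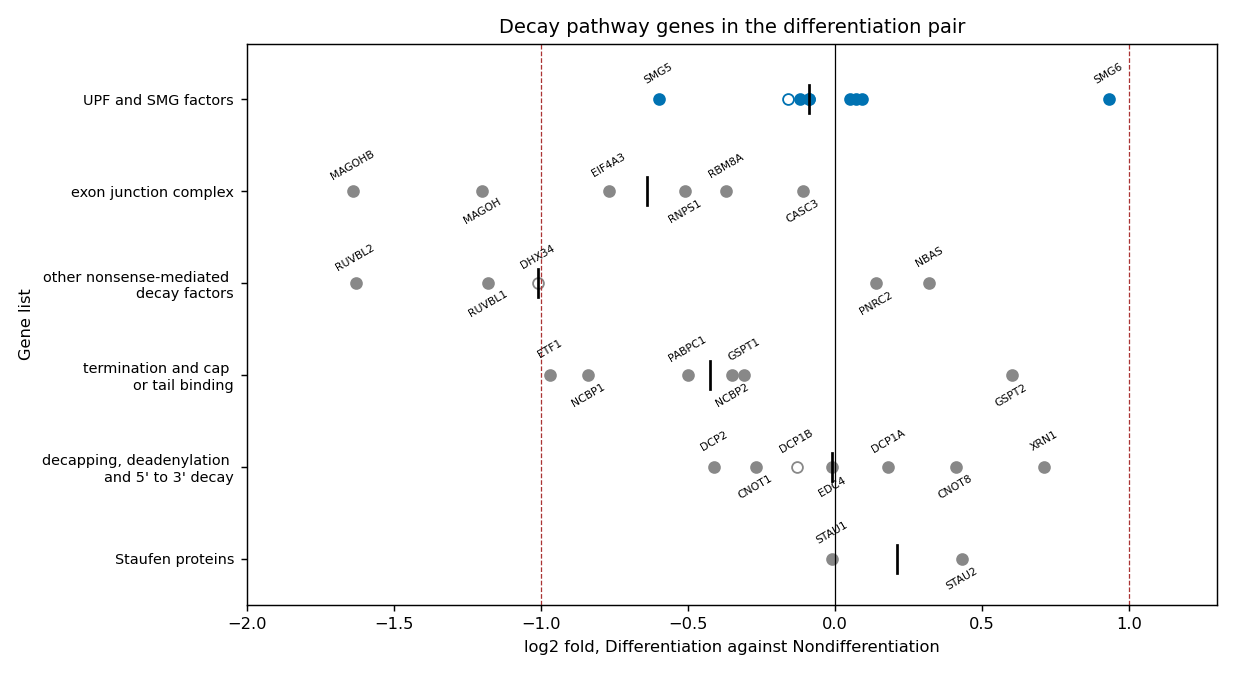
Log2 fold in Differentiation against Nondifferentiation (horizontal axis) of each gene in 6 pathway lists (vertical axis); open circles lie below the floor for measured genes, black ticks are list medians and dashed lines mark 2-fold. SMG6, at 0.93, is the highest gene drawn, 7 of the UPF and SMG genes sit close to 0, and MAGOHB, MAGOH, RUVBL1 and RUVBL2 lie past the lower dashed line, as does DHX34 at -1.01, below the floor.

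Against siControl the only other pathway gene counted in a knockdown was STAU1, the target of its own siRNA. The shares of all genes counted were so low that 24 genes show neither a likeness nor a difference. In siUPF1 against siControl 0 of 24 measured ones were counted, where 0.543% of measured genes were, and the median of the 26 was -0.04. NBAS and EDC4, a scaffold of decapping, had the highest log2 folds of the measured ones, 0.24 each. NCBP1, a nuclear cap-binding protein, had -0.33, MAGOHB -0.24, CNOT1, the scaffold of the main deadenylase, -0.17, and DHX34 -0.33 below the floor. RBM8A, of the exon junction complex, had 0.04, NCBP2 0.15 and DCP1B, also below the floor, 0.54. In siSTAU1 against siControl 1 of 24 was counted, STAU1 itself, where 0.201% of measured genes were, and the median of the 26 was -0.02. NBAS had 0.31, EIF4A3, the helicase of the exon junction complex, 0.29, STAU2 0.31, PNRC2, a decapping adaptor, -0.29 and GSPT2 -0.14. In siControl against Nondifferentiation 0 of 24 were counted, where 0.796% of measured genes were, with PNRC2 at 0.60 and EIF4A3 at -0.41.

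Genes whose pattern was most like that of the members with a range of at least 1 were looked for among the 8306 genes of sufficient mean level. For UPF1 the nearest were NEK3, N4BP2L1 and CDC42BPB, at distances of 0.497, 0.636 and 0.697, and none was close. CDC42BPB stood at 9.45 in siControl, 8.02 in siUPF1 and 8.58 in Nondifferentiation. For SMG6 genes lay much closer, among them PRKD2 at 0.093 and STMN4 at 0.140. PRKD2 had 9.55 in siControl, 9.30 in siSTAU1 and 9.94 in siUPF1, and 9.64 in Nondifferentiation and 10.48 in Differentiation, the same order of libraries as SMG6. For SMG5 near genes were ZNF37BP at 0.145 and ENTPD6 at 0.146, and for SMG9 they were STKLD1 at 0.181, STAC at 0.271 and MED10 at 0.279. The distances cover 5 libraries only.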

How the data were processed

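The authors deposited 1 table per library of log2 expression values by gene symbol, and 1 column per table was used. The submitters' processing notes name Bowtie2, edgeR and hg19 and give neither versions nor roles. No source used here gives the counting tool, the annotation or the use of strand. The values share the highest value, 18.01, in all 5 libraries, and the upper quartiles were 8.63 or 8.64. Of linear values below 100000 in the files 100.0% were whole multiples of 1/5 (tolerance 0.002), the pattern that averaging whole counts of 5 libraries leaves. Quantile normalization is inferred from this, and it removes differences in total RNA.

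The linear value of 1 read was taken as the 40th distinct low value divided by 40, between 0.58 and 1.27. Values divided by it gave estimated reads, and counting intervals are Poisson intervals on the log2 scale. Log2 folds are differences of deposited values. GC content and length came from the longest GENCODE 29 transcript of each symbol, matched for 95.9% of measured genes and all 9 members. Named genes were the members, STAU1, the genes past 2-fold or else the highest and lowest gene of each pathway list, and 3 nearest genes. Some genes of the pathway, marker and nearest lists are not reported here, and the counts and medians of the pathway and marker lists are over the genes left. The members and lists were chosen with earlier results of these data known. The steps were tested on simulated data. Alternatives were a 1.5-fold threshold, no floor, recentring, 10 linear units added, other reference libraries, and GC content and length trends removed. The removal of trends was added after the data were seen, and siSTAU1 as a reference was not planned either. Python 3.11.15, pandas 2.3.3, numpy 2.4.6 and matplotlib 3.10.9 were used.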

Additional observations from a re-analysis of the deposited data

How the results depend on the processing

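With 1 library per group no replicate could be left out. No paired analysis was possible because each group has 1 library. At a 1.5-fold threshold 2 members were counted in siSTAU1 against siControl (UPF2 and UPF3B, lower, where 2.31% of measured genes were counted), 1 in siControl against Nondifferentiation (UPF3B, higher, where 5.46% were) and 2 in Differentiation against Nondifferentiation (SMG5 and SMG6, where 43.5% were), in place of 0 in each. In siUPF1 against siControl UPF1 alone was counted under every alternative run. With Nondifferentiation as the reference the median of the members in siSTAU1 was -0.09 in place of -0.33; the cause was not tested. Recentring and 10 added linear units changed the sign of 0 of 36 single log2 folds each. Removing GC content and length trends changed 4 of 36, Nondifferentiation as the reference 4 of 18, and siSTAU1 as the reference 2 of 9. Differences within the counting intervals are not detectable at this depth.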
